A study of Drosophila melanogaster with 12 samples.

Results

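The accessible regions described here are those of chromosome 4 of Drosophila melanogaster, the small dot chromosome. Overlapping ATAC-seq peaks of all 12 libraries of the study were merged, and every merged region on chromosome 4 was taken, which gave 310 of 22350 regions in the genome. ATAC-seq reports accessible chromatin because a transposase cuts DNA that nucleosomes leave open. The chromosome decided which regions were taken, not a measured value.

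The libraries came from whole embryos in 6 groups of 2. Embryos from mothers without HIRA were collected 0.5 to 1.5 h and 2 to 3 h after egg laying, each with a wild-type group labelled as its control. Embryos from mothers without dPCIF1 were collected at 0.5 to 1.5 h, with a wild-type group of their own. Both mutants are M-Z+, so that the maternal product was missing and the embryo carried a zygotic copy. HIRA is a chaperone that deposits the histone variant H3.3, and dPCIF1 is the fly counterpart of a mammalian mRNA cap methyltransferase. Each library was a pool of embryos picked by hand, and according to the study many embryos without maternal HIRA stalled in the nuclear divisions, so that genotype and developmental progress cannot be told apart in the HIRA mutants. The wild-type stock was w1118. Which mutant alleles entered these libraries is not given in the sources used here. The lists hold peak positions only. A library's depth is therefore unknown, and a value per library is either the presence of a peak or its width in base pairs (bp).

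Chromosome 4 is the smallest chromosome of this fly and the one whose genes sit in chromatin that otherwise looks like heterochromatin. It is covered by HP1a and by methylated H3K9, it is rich in transposable elements and it rarely recombines, yet most of its genes are transcribed. The protein POF, which is specific to this chromosome, binds these active genes. The chromosome carries several regulators of patterning, among them ci, which encodes the Gli-type transcription factor of Hedgehog signalling, pan, which encodes the TCF factor of Wnt signalling, and the Pax6 genes ey and toy.

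Stretches of 6 regions are printed because they hold motifs of factors that act at early promoters, in regions to which the results below return. Zelda and GAF are pioneer factors of the early embryo, DREF binds promoters of broadly expressed genes and M1BP is a factor of paused promoters. The motif searched for Zelda was CAGGTAG. For GAF it was GAGAGAG. For DREF it was TATCGAT. For M1BP it was GGTCACACT. Both strands were searched, and TATCGATA reads the same on both strands and so counts as a match on each. The motif of Zelda was in 20 of the 310 regions (6.45%, against 8.61% of regions on the large arms of chromosomes 2 and 3), that of GAF in 12 (3.87%, against 11.6%), that of DREF in 50 (16.1%, against 8.02%) and that of M1BP in 3 (0.968%, against 2.24%). The stretches are from the dm6 assembly (Release 6), plus strand, 5′ to 3′, with the motif in capitals. They lie at chr4:70300-70404 in the pan promoter, chr4:731652-731778 in a coding exon of bt, chr4:1034270-1034373 in a coding exon of ATPsynbeta, chr4:466829-466923 in the promoter of Taf3 and CG33941, chr4:359867-359937 in the promoter of Hcf and PMCA, and chr4:1534-1661 in the promoter of JYalpha. The first 3 hold the Zelda motif and the other 3 the DREF motif. A match is a description of the sequence and not evidence of binding.
pan promoter: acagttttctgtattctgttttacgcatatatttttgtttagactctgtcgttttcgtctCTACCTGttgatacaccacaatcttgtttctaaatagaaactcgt
bt coding exon: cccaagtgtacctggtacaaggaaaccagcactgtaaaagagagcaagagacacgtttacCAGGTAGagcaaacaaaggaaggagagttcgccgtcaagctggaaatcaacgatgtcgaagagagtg
ATPsynbeta coding exon: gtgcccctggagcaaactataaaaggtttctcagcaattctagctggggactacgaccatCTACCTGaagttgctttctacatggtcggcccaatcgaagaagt
Taf3 promoter: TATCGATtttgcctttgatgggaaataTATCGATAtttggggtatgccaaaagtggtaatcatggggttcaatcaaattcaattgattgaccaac
Hcf promoter: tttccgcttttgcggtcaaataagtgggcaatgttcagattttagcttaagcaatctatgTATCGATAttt
JYalpha promoter: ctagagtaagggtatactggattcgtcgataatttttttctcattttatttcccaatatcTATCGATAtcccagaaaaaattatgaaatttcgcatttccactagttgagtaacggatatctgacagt

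Accessible regions were denser on chromosome 4 than on the large autosomal arms (2L, 2R, 3L and 3R), although its genes are sparser. The 310 regions on 1.35 Mb made 229.9 regions per Mb, against 172.9 on the large arms together, 168.9 to 178.7 on the single arms and 135.3 on the X chromosome. Genes numbered 87.5 per Mb on chromosome 4 and 139.8 on the large arms, and transcription start sites (TSS) 135.7 and 178.8 per Mb. Within 1 kb of a TSS lay 18.5% of the bases of chromosome 4, against 24.0% of the large arms, while transposable elements made up 24.8% against 5.79% and GC bases 34.8% against 42.1%. The regions of chromosome 4 had a median width of 440.5 bp and a median GC content of 41.3%, against 395 bp and 49.1% on the large arms.

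The same held in every library. The early HIRA mutants (0.5 to 1.5 h) had 25.2 and 31.9 peaks per Mb on chromosome 4, against 59.3 and 60.1 in their controls. The late HIRA mutants (2 to 3 h) had 148.4 and 106.8, against 143.9 and 121.6 in the controls. The dPCIF1 mutants had 107.6 and 117.9, against 77.9 and 88.3 in their controls. The large arms of the same libraries had 10.6 and 17.1 peaks per Mb in the early HIRA mutants, 34.0 and 40.1 in their controls, 77.1 and 51.2 in the late HIRA mutants, 87.9 and 77.0 in their controls, 77.7 and 90.6 in the dPCIF1 mutants and 59.7 and 61.8 in their controls. Each chromosome 4 value thus lay above the large-arm value of its own library. The log2 ratio of the densities averaged 0.72 ± 0.28 (SD, n = 12 libraries) with a range of 0.38 to 1.25, above 0 in 12 of 12 libraries (exact sign-flip permutation test, two-sided, p = 0.000488, adjusted p = 0.00146 over 3 tests). That p is the smallest that 12 libraries can give, and since all libraries read the same genome it measures the spread between libraries only.

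**Figure D1:**
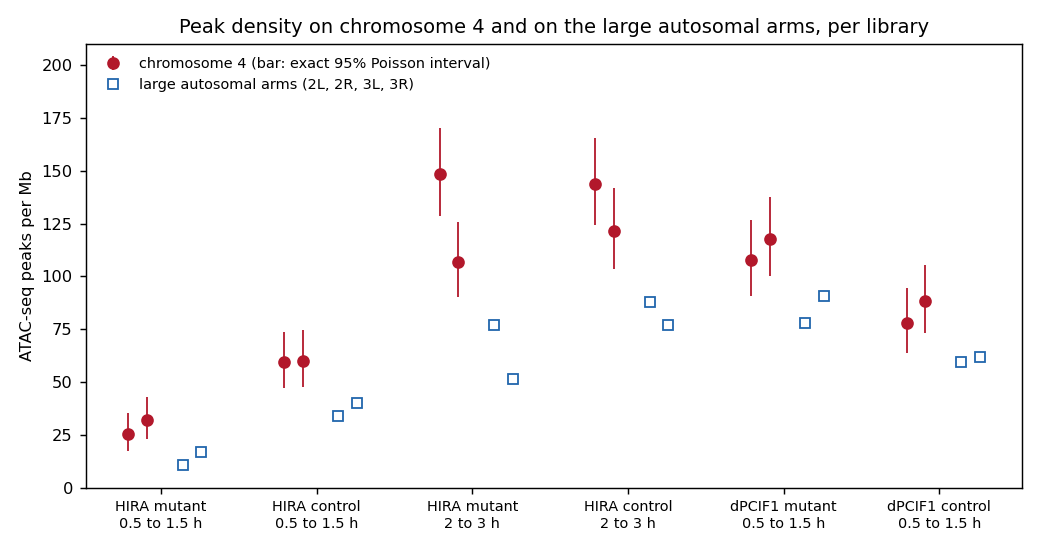
ATAC-seq peaks per Mb (vertical axis) in each library, with the 6 groups along the horizontal axis. Filled circles are chromosome 4 with exact Poisson intervals (95%, counting error only), and open squares are the large autosomal arms. The circles range from 25.2 to 148.4 peaks per Mb and lie above the square of the same library in 12 of 12 libraries.

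Repeats and the choice of comparison did not remove the difference. Counted outside transposable elements on both sides, the mean log2 ratio was 0.88. It was 0.65 when each library was reduced to its 1505 widest peaks, the number in the shortest list, and 0.89 against the X chromosome. Against the 3 Mb next to the centromeres of the large arms, which are rich in repeats as well, it was 2.64. Only reads that mapped to 1 place were used for peaks, so that accessible chromatin inside repeated sequence may be missed, more so on a chromosome rich in it.

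Regions ran along the whole chromosome except its far end. In windows of 100 kb the count was highest at 600 to 700 kb from the centromere-side end, with 32 regions, and lowest at 1200 to 1300 kb, with 10. The remaining 48.1 kb at the telomere side held 2 regions, and 95.4% of its bases were transposable elements. Neighbouring regions were separated by a median of 2136 bp, against 2793 bp on the large arms. The longest stretch without a region, 36724 bp, ended at the region of the Mitf promoter described below.

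The regions of chromosome 4 were spread more over gene bodies than those of the large arms. Promoters, taken as 1 kb either side of a TSS, held 117 regions (37.7%, against 43.9% on the large arms). Coding exons beyond promoters held 94 (30.3% against 16.4%), introns 64 (20.6% against 23.1%), intergenic sequence 28 (9.03% against 14.5%), untranslated exons 6 and other exons 1. Within single libraries, the share of peaks in coding exons was higher on chromosome 4 by 15.3 ± 5.13 percentage points (12 of 12 libraries), and the shares in introns and in intergenic sequence were lower, with differences of -6.35 ± 3.67 and -5.60 ± 1.69 points (12 of 12 each). Each of these gave an adjusted p of 0.000558 over 8 exact permutation tests that were added after seeing the data (two-sided, SD, n = 12 libraries). Coding bases beyond promoters make up 17.9% of chromosome 4 and 10.4% of the large arms. Genes as a whole cover 78.95% of the bases of chromosome 4 and 68.2% of the large arms. What part of the differences in coding exons and in intergenic sequence these base shares account for was not tested.

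The share of peaks at promoters did not differ past the threshold. The mean difference from the large arms was -4.03 ± 6.22 points (exact sign-flip permutation test, two-sided, n = 12 libraries, adjusted p = 0.0527). The 8 libraries of the HIRA experiment lay between -12.5 and -2.999 points and the 4 of the dPCIF1 experiment between 2.54 and 5.29 points, so that the sign went with the experiment. Leaving out dPCIF1 mutant replicate 1 or 2, or dPCIF1 control replicate 1 or 2, took the test past the threshold, with differences of -4.68, -4.87, -4.70 and -4.62 points. Against the 3 Mb next to the centromeres of the large arms the difference was 6.64 points (11 of 12 libraries above 0, exact permutation test, adjusted p = 0.00513), with the 1505 widest peaks it was -10.5 points, and with promoters taken as 500 bp either side of a TSS it was -0.72 points. The peaks themselves were slightly wider on chromosome 4, by 0.03 ± 0.04 on the log2 scale (9 of 12 libraries, exact permutation test, adjusted p = 0.0322), a call that turned to -0.05 with the 1505 widest peaks. It was lost, at 0.025 to 0.033, when early HIRA mutant replicate 1, early HIRA control replicate 2 or any one of the 4 late libraries was left out.

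**Figure D2:**
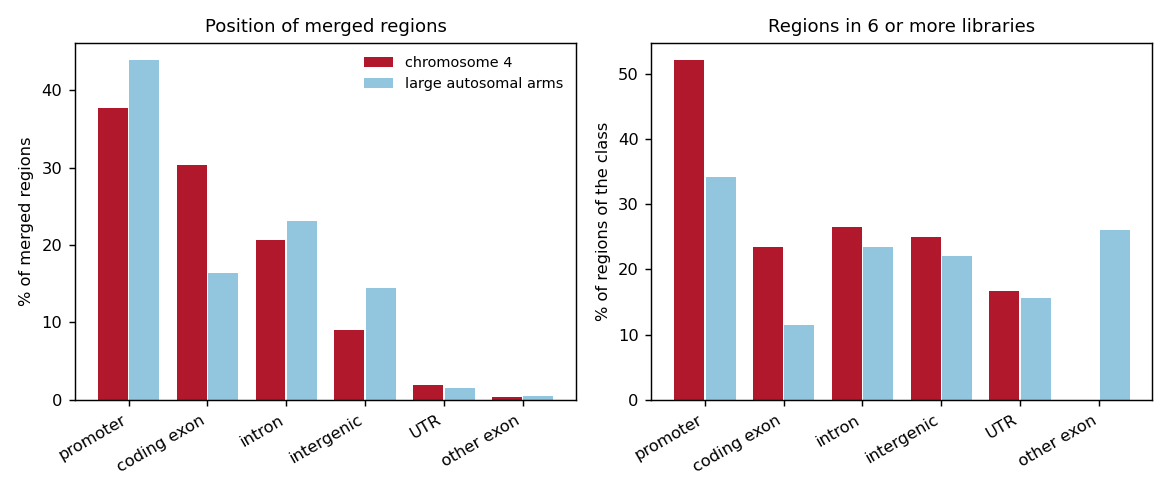
Left, share of merged regions (%) in each position class, and right, share of each class (%) that was present in 6 or more of the 12 libraries. Dark bars are chromosome 4 and light bars the large autosomal arms. Coding exons held 30.3% of the chromosome 4 regions against 16.4% on the large arms, and 52.1% of chromosome 4 promoter regions were in 6 or more libraries against 34.2% on the large arms.

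Promoter regions were also found in more libraries. Of the 117 on chromosome 4, 61 (52.1%) were present in 6 or more libraries, against 34.2% of promoter regions on the large arms. The same count was 22 of 94 (23.4%) for coding exons, against 11.4%. Over all classes, the median region of chromosome 4 was present in 4 libraries and that of the large arms in 2, and 79 regions (25.5%, against 36.1%) were present in 1 library.

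**Figure D3:**
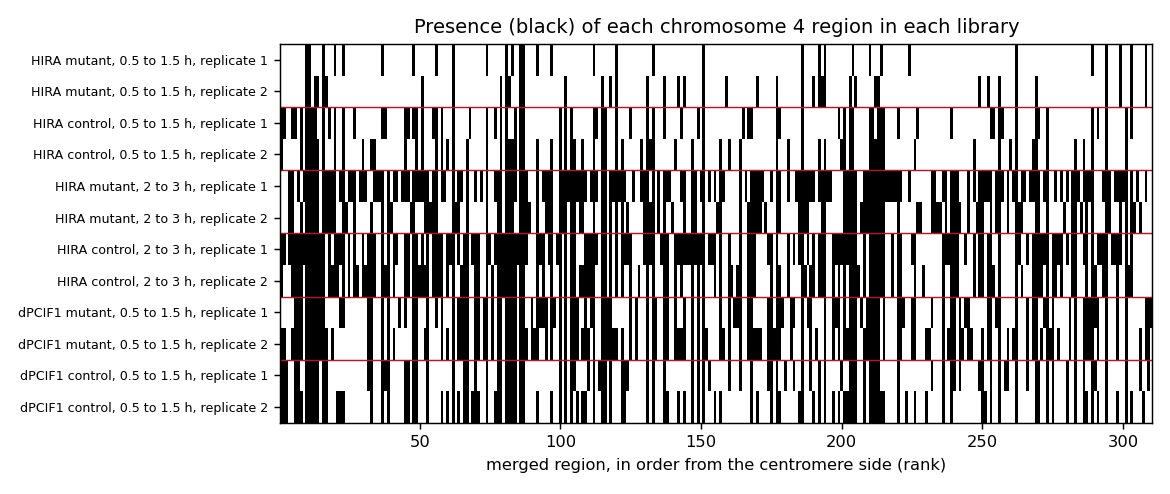
Presence of a peak in each of the 310 merged regions of chromosome 4 (horizontal axis, rank in order from the centromere side) in each of the 12 libraries (rows). Black marks a peak, and red lines separate the groups. The early HIRA mutant libraries hold 33 and 43 of the regions, their controls 79 each, and the late HIRA mutant library with the most regions 196.

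Promoters of protein-coding genes carried a peak more often on chromosome 4 than on the large arms. Of its 80 protein-coding genes, 67 (83.8%) had a region at a promoter in at least 1 library, against 60.7% of 11669 genes on the large arms. In the early HIRA mutants 13.8% and 18.8% of these genes had a promoter peak, against 40% and 37.5% in the controls. The late HIRA mutants had 62.5% and 47.5%, against 75% and 68.8% in the controls. They were 70% and 72.5% in the dPCIF1 mutants, against 60% and 62.5% in their controls. Within a library the share on chromosome 4 exceeded that on the large arms by 26.1 ± 9.33 points (12 of 12 libraries, exact sign-flip permutation test, two-sided, p = 0.000488). This test was added after seeing the data. A gene counted when any of its TSS had a peak. Over genes of all types, chromosome 4 has 183 TSS for 118 genes and the large arms 19491 for 15233. Its genes thus have more TSS each on average, and what part of the difference that accounts for was not tested.

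All 17 listed transcription factor and coactivator genes of chromosome 4 had a promoter region, in a median of 11 libraries. Over all 80 protein-coding genes of the chromosome the median was 7 libraries. Promoters of ci, pan and Sox102F, which encodes a Sox-family factor, were accessible in all 12 libraries. The promoters of ey, toy, dati, zfh2, Pur-alpha and fd102C, which encodes a forkhead factor, were accessible in 11, each missing from a library of the HIRA experiment at 0.5 to 1.5 h. At the other end, promoters of onecut and fuss had a peak in 3 libraries each. Of the listed transcription factor genes, 5 had a promoter peak in both HIRA mutant libraries at 0.5 to 1.5 h, against 9 in both controls. The late HIRA mutants had 13 and their controls 14, and in the dPCIF1 experiment 14 in the mutants and 11 in the controls. Over all 80 protein-coding genes the same counts were 7 against 22, 36 against 54 and 54 against 43.

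Of the signalling genes, 10 of 11 had a promoter region, in a median of 8 libraries, against 7 over all protein-coding genes of the chromosome. Only mav, which encodes a TGF-beta-type ligand, had one in all 12, PIP4K had none, and the promoter of Actbeta, an activin-type ligand, was accessible in both dPCIF1 mutant libraries and in no other. Among 7 genes of general cell function the median was 11 libraries, with Rad23, a factor of DNA repair and protein turnover, in 12 and the ribosomal protein gene RpS3A in 11. On the same list eIF4G1 had a promoter peak in 2 libraries and Kif3C in none. Neuronal genes had fewer, with a median of 3 libraries over 7 genes and no promoter region at dpr7 or at Syt7, which encodes a synaptotagmin. The promoters of CaMKII, a kinase of synaptic plasticity, and of Cadps were accessible in 10 libraries each. That of unc-13, a factor of synaptic vesicle release, was accessible in 3. Of the 2 muscle and cytoskeleton genes, Ank, which encodes an ankyrin, had a promoter region in 5 libraries and bt had none.

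Some long genes held many regions away from their promoters and others few. The zinc finger gene zfh2 overlapped 15 regions, 13 of them outside its promoters, over 39.1 kb. For unc-13 the numbers were 12 and 9, for pan 11 and 9, for ey 10 and 8 and for Sox102F 10 and 6. Fewer overlapped Syt7, with 1 region over 27.8 kb, and Mitf, with 2 over 25.6 kb. PMCA had 4 over 30.7 kb and Cadps 6 over 40.9 kb. The gene bt encodes projectin, a giant protein of muscle, over 52.1 kb and had 9 regions, none at a promoter. A further 12 of the 80 protein-coding genes had no promoter region, among them Kif3C, yellow-h and CaMKI.

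Of the 310 regions, 11 (3.55%, against 2.99% on the large arms) were present in all 12 libraries. They were 5 promoter regions, 3 in coding exons, 2 in introns and 1 in intergenic sequence. The ci promoter (chr4:56178-57049) had peaks of 318 and 314 bp in the early HIRA mutants, against 829 and 497 bp in their controls. Its peaks were 459 and 849 bp wide in the late HIRA mutants, against 707 and 803 bp in the controls. In the dPCIF1 mutants they were 585 and 763 bp, against 602 and 638 bp in the controls. The peaks at ci were thus narrower in the early HIRA mutants than in every other library. This was not particular to ci. The median width of all chromosome 4 peaks was 313.5 and 296 bp in these mutants, against 328.5 bp or more in every other library. On the large arms it was 291 and 298.5 bp, against 332 bp or more.

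The pan promoter (chr4:69926-70697), whose Zelda motif is printed above, varied less. Its peaks were 395 and 307 bp in the early HIRA mutants, against 432 and 649 bp in the controls. They were 519 and 463 bp in the late HIRA mutants, against 615 and 537 bp, and 673 and 665 bp in the dPCIF1 mutants, against 517 and 544 bp. Mutants and controls did not overlap in any of these pairs. Nor did the median width of all chromosome 4 peaks, which differed in the same directions. It averaged 304.75 bp in the early HIRA mutants, against 343.25 bp, and 372 bp in the late ones, against 392.5 bp. In the dPCIF1 mutants it averaged 373 bp, against 345.5 bp, so that these directions were not particular to pan.

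The Rad23 promoter (chr4:307896-309157) and the region at mav and mir-954 (chr4:625613-626704) reached the widest peaks of these 11. At Rad23 the peaks were 337 and 346 bp in the early HIRA mutants, against 654 and 455 bp in the controls, and 519 and 393 bp in the late mutants, against 1172 and 1149 bp in the controls. The dPCIF1 mutants had 897 and 788 bp, against 972 and 1026 bp. At mav the early HIRA mutants had 273 and 243 bp, against 317 and 692 bp, and the late ones 987 and 1003 bp, against 1053 and 909 bp. Its dPCIF1 mutant peaks, 1065 and 1041 bp, were wider than those of 409 and 351 bp in the controls.

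Regions in coding exons that were always present lay in toy, bt and dati, a zinc finger gene. The region in toy (chr4:1005788-1006486) had peaks of 429 and 296 bp in the early HIRA mutants, against 563 and 694 bp, and 564 and 636 bp in the late mutants, against 627 and 615 bp. It had 518 and 534 bp in the dPCIF1 mutants, against 492 and 510 bp. In bt (chr4:731148-732133) the dPCIF1 mutants had 706 and 944 bp, against 272 and 341 bp in the controls, and the late HIRA mutants 731 and 814 bp, against 965 and 726 bp. The early HIRA mutants had 413 and 240 bp there, against 412 and 397 bp. The other regions present throughout were in dati, at mir-9385, in introns of asRNA:CR43957 and of the overlapping genes Kif3C and CG32017, and at an intergenic position (chr4:406238-407260).

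**Figure D4:**
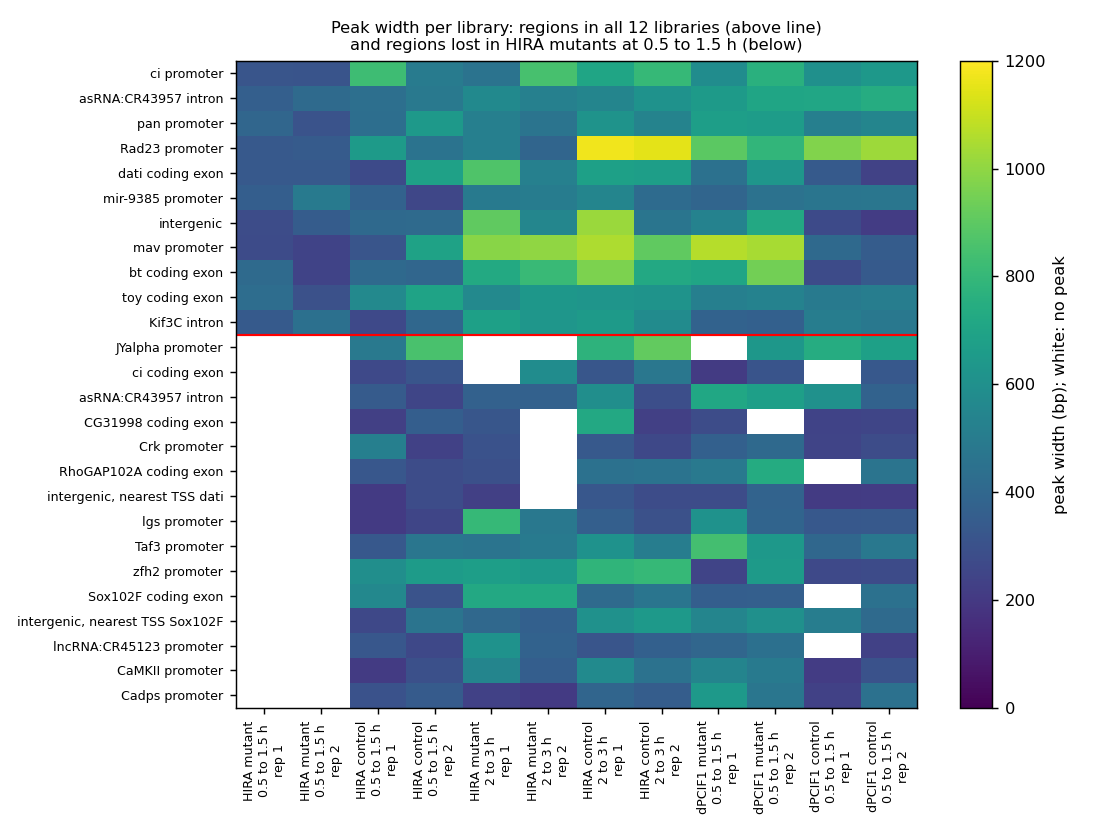
Peak width in bp (colour scale, white for no peak) of 26 chromosome 4 regions (rows) in the 12 libraries (columns, mutants left of their controls). Above the red line are the 11 regions present in every library and below it the 15 with a peak in both early HIRA controls and in neither early HIRA mutant. The Rad23 promoter reached 1172 bp in a late HIRA control, against 519 bp at most in the late HIRA mutants.

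Peak calls on chromosome 4 were then compared between HIRA mutants and controls. A region was called lost when both control libraries had a peak there and neither mutant library did, and gained in the opposite case. The early HIRA mutants had 34 and 43 peaks on chromosome 4, against 80 and 81 in the controls, a log2 ratio of -1.06 with a pooled SD of 0.17. The groups did not overlap (exact permutation test, two-sided, p = 0.333). No test of 2 libraries against 2 can give a smaller p, here and in the comparisons that follow. Of 48 regions in both controls, 15 were lost (31.2%, against 47.6% of all such regions in the genome), 12 were in both mutants and 21 in 1. All 48 regions had a peak in both late HIRA controls, so that the 15 lost ones did as well. Of these 15, 9 had a peak in both late HIRA mutants. The 2 early HIRA mutant libraries agreed least of all replicate pairs, sharing 17 of 59 regions (28.8%), against 43.6 to 65.9% in the other groups.

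The lost early regions were 8 promoters, 4 coding exons, 2 intergenic regions and 1 intron. Among the promoters, that of zfh2 (chr4:502196-503007) had no peak in the early HIRA mutants, against 591 and 657 bp in the controls, and peaks of 674 and 651 bp in the late HIRA mutants, against 783 and 806 bp. The promoter of Taf3, a subunit of the general factor TFIID, (chr4:466108-466959) had none in the early HIRA mutants, against 329 and 470 bp in the controls. It had 463 and 496 bp in the late HIRA mutants, against 611 and 509 bp, and 842 and 639 bp in the dPCIF1 mutants, against 403 and 480 bp. Both regions were thus missing from the early HIRA mutants alone. A neighbouring zfh2 promoter region had a peak of 222 bp in 1 of them. The others were the promoters of lgs, the BCL9-type coactivator of Wnt signalling, of CaMKII, of the adaptor gene Crk, of Cadps and the kinase gene Dyrk3, of JYalpha and of lncRNA:CR45123. The coding exons were in ci, CG31998, RhoGAP102A and Sox102F.

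JYalpha, which encodes a sodium and potassium pump subunit needed for male fertility, held the 1 region lost at both stages. The region (chr4:1284-2434), which begins within 1 kb of the TSS, had no peak in the HIRA mutants at either stage, against 485 and 855 bp in the early controls and 776 and 914 bp in the late controls. Of the early controls, 1 had a peak that reached the 1 kb window itself. The region had a peak of 636 bp in 1 of the dPCIF1 mutants and none in the other, against 742 and 680 bp in the controls. Gained regions were 2 of the 17 in both early HIRA mutants (11.8%, against 6.55% of all regions). One was the promoter of Mitf, a regulator of lysosomal genes, (chr4:1218902-1219530), with 213 and 446 bp in the early HIRA mutants, against no peak in the controls, and 629 and 568 bp in the late HIRA mutants, against 403 bp in 1 control and none in the other. The other lay in a HeT-A telomeric element. Counts from so few libraries move with each one. Without mutant replicate 1 or 2, or control replicate 1 or 2, 25, 26, 38 and 42 regions were lost and 13, 3, 3 and 4 gained, since fewer libraries then had to meet the rule. With the dPCIF1 controls in place of the HIRA controls 40 were lost, and with the 1505 widest peaks of each library 4 were lost and 5 gained.

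At 2 to 3 h the HIRA mutants had 200 and 144 peaks on chromosome 4, against 194 and 164 in the controls, and the groups overlapped (log2 ratio -0.06, exact permutation test, p = 1). Of 137 regions in both controls, 20 were lost (14.6%, against 21.0% of all regions) and 82 were in both mutants. Promoters made up 14 of the 20, against 70 of the 137. These lay near TSS of Hcf, a host cell factor homologue that acts with chromatin regulators, MED26, a Mediator subunit, gw, the GW182 protein of miRNA silencing, the receptors Eph and PlexB, Ank and Zyx, which encodes zyxin. Promoters of gw, Eph and Ank had no peak at all in either late HIRA mutant, whereas PlexB kept another promoter peak in both and Hcf, MED26 and Zyx kept one in mutant replicate 1. Over all TSS of a gene, 10 of the 75 genes with a promoter peak in both late controls had none in either mutant. The same share over the genes of the large arms is not given here, so this count cannot be set against the genome. In the region at Hcf and PMCA, a calcium pump gene, (chr4:359796-360360) the late HIRA mutants had no peak, against 480 and 560 bp in the controls. This region had no peak in the early libraries of that experiment. The dPCIF1 mutants had 529 and 224 bp there, against 484 bp in 1 control and none in the other. At gw (chr4:659211-660373) the late HIRA mutants had none, against 363 and 801 bp in the controls. Of the 20 lost regions, 13 were present in both dPCIF1 mutants, as were 118 of all 310 regions. The share among the other regions in both late HIRA controls is not given here, so this count links the 2 mutants no further.

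The regions gained in late HIRA mutants lay elsewhere. Of 114 regions in both mutants, 13 were gained (11.4%, against 11.3% of all regions). They were 5 in introns, 4 intergenic, 2 in coding exons of CG11360 and 2 at promoters, of which 1 was at Pur-alpha. That gene already had another promoter peak in both late HIRA controls. The introns were of pan, Sox102F, toy, asRNA:CR44030 and pho, which encodes a DNA-binding recruiter of Polycomb proteins. Transposable elements overlapped 5 of the 13, against 22 of the 114. The region in the pho intron (chr4:1176021-1176515) had peaks of 426 and 200 bp in the late HIRA mutants and in no other library. Without mutant replicate 1 or 2, or control replicate 1 or 2, 52, 23, 31 and 44 regions were lost and 33, 47, 25 and 20 gained. With the 1505 widest peaks 5 were lost.

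Set against the large arms, chromosome 4 had relatively more peaks in HIRA mutants at both stages. The log2 ratio of its density to that of the large arms was 1.25 and 0.90 in the early mutants, against 0.80 and 0.58 in the controls, and 0.94 and 1.06 in the late mutants, against 0.71 and 0.66. Neither pair of groups overlapped, with differences of 0.38 (pooled SD 0.21) and 0.32 (pooled SD 0.06) and p = 0.333 in each exact permutation test. Without early mutant replicate 1 the early difference was 0.21. The wild-type sets of the early stage did not overlap in this ratio either. It was 0.80 and 0.58 in the HIRA controls, against 0.38 and 0.51 in the dPCIF1 controls. Over both stages together, with labels permuted within a stage, the difference was 0.35 (exact permutation test, two-sided, p = 0.0556, the smallest possible and short of 0.05). The higher ratio in HIRA mutants was not particular to chromosome 4, since the X chromosome showed a difference of 0.33 in the same test (exact permutation test, p = 0.0556). By stage the X differences were 0.17 early and 0.50 late. The X ratio of the early wild-type sets also differed, with means of 0.13 in the HIRA controls and -0.61 in the dPCIF1 controls. The lists of the early HIRA mutants were shorter, with 1505 and 2399 peaks in all, against 4707 and 5449 in the controls. Those of the late mutants, with 10595 and 7122 peaks, overlapped the 11432 and 9998 of the controls in length. Among the 1505 widest peaks, chromosome 4 had 34 and 23 in the early mutants, against 19 and 25 in the controls, so that the early groups then overlapped, and 31 and 33 in the late mutants, against 27 and 21.

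The promoter share of the chromosome 4 peaks was lower in HIRA mutants, as it was on the large arms. On chromosome 4 it was 41.2% and 39.5% in the early mutants, against 43.8% and 49.4% in the controls, and 36.5% and 38.9% in the late mutants, against 46.9% and 47.6%. Over both stages the difference was -7.88 points (exact permutation test within stages, two-sided, p = 0.0556, the smallest possible). On the large arms the share averaged 48.2% in the early mutants, against 55.6% in the controls, and 48.2% in the late mutants, against 51.2%, a difference of -5.19 points over both stages (exact permutation test, p = 0.0556). The difference between chromosome 4 and the large arms changed by -2.69 points (exact permutation test, p = 0.222), so that the lower share was not shown to be particular to chromosome 4. The share overlapping a transposable element differed by 0.83 points over both stages (exact permutation test, p = 0.611). Whether the difference between HIRA mutants and controls in peak number, relative density or promoter share changed between stages was tested as well. None passed the threshold (exact permutation tests, p = 0.222, 0.833 and 0.722).

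In dPCIF1 mutants chromosome 4 had 145 and 159 peaks, against 105 and 119 in the controls, a log2 ratio of 0.44 with a pooled SD of 0.11 and no overlap (exact permutation test, p = 0.333). The large arms had a log2 ratio of 0.47, and the relative density differed by -0.02. As the early HIRA controls had 80 and 81 peaks, the wild-type sets of that stage differed as well. Promoters made up 56.6% of peaks in each dPCIF1 mutant library, against 53.3% and 52.1% in the controls. Of 79 regions in both controls 6 were lost (7.59%, against 9.88% of all regions), and 66 were in both mutants. All 6 lay in coding exons, against 19 of the 79. They were in JYalpha, CG31998, zfh2, bt, ATPsynbeta and Actbeta. The region in ATPsynbeta, which encodes a subunit of the mitochondrial ATP synthase, (chr4:1032969-1034373) had no peak in the dPCIF1 mutants, against 569 and 422 bp in the controls. It had 845 and 592 bp in the late HIRA mutants, against 741 and 722 bp, and 338 bp in 1 early HIRA control.

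Of 118 regions in both dPCIF1 mutants, 22 were gained (18.6%, against 25.3% of all regions). Promoters made up 10 of them, with regions near TSS of Actbeta, pan, Gyf, ATPsynbeta, and Tdg with Pur-alpha. Of these genes, all but Actbeta already had another promoter peak in both controls. Over all TSS of a gene, 4 of the 77 genes with a promoter peak in both mutants had none in either control. For this count too the share over the genes of the large arms is not given here. The promoter of Actbeta (chr4:1083976-1084532) had peaks of 200 and 527 bp in the dPCIF1 mutants and none in the other 10 libraries, whereas the lost coding exon region of the same gene (chr4:1082322-1082875) had 247 and 239 bp in the controls and none in the mutants. Of the 22, 7 were present in both late HIRA controls and 12 in neither. Of all 310 regions, 137 were in both late HIRA controls. The shares among the other regions in both dPCIF1 mutants are not given here. A further pan promoter region (chr4:69263-69808), gained in dPCIF1 mutants with 453 and 533 bp against no peak in the controls, was lost in late HIRA mutants, which had none against 235 and 200 bp. Without mutant replicate 1 or 2, or control replicate 1 or 2, 7, 12, 17 and 14 regions were lost and 45, 39, 32 and 42 gained. With the HIRA controls of the same stage 3 were lost and 45 gained, and with the 1505 widest peaks 3 were gained.

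**Figure D5:**
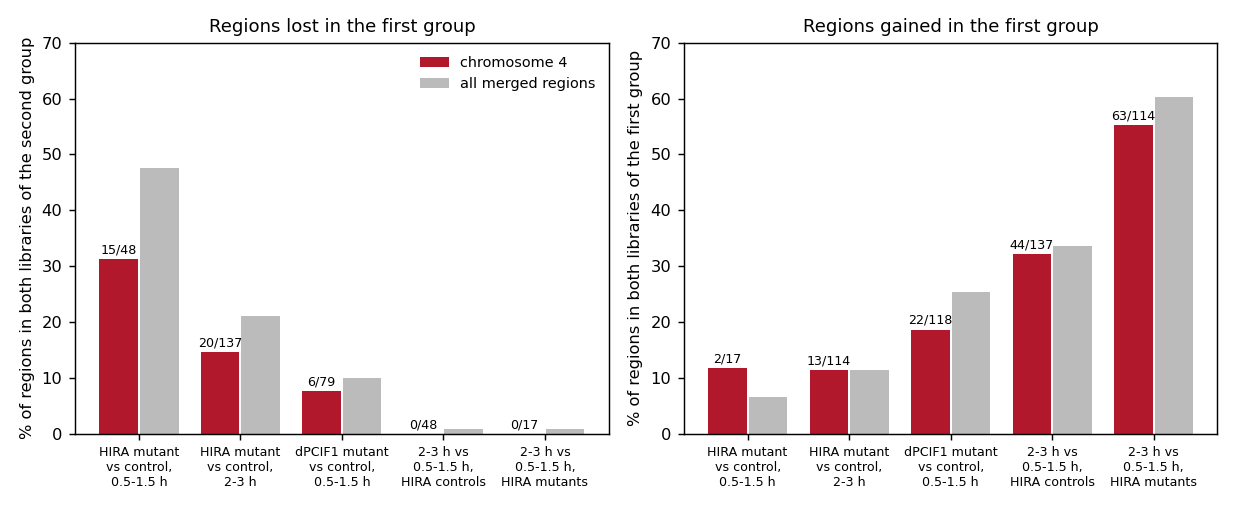
Share (%) of regions lost (left, of regions in both libraries of the second-named group) and gained (right, of regions in both libraries of the first-named group) in 5 comparisons. Dark bars are chromosome 4, with counts above them, and grey bars all merged regions. In early HIRA mutants 15 of 48 chromosome 4 regions were lost, 31.2% against 47.6% of all regions.

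Between stages, chromosome 4 mainly added regions. In the HIRA controls the peak number was 194 and 164 at 2 to 3 h, against 80 and 81 at 0.5 to 1.5 h (log2 ratio 1.15, exact permutation test, p = 0.333), and the large arms changed by the same log2 ratio of 1.15. Of 48 early regions 0 were lost (0%, against 0.853% of all regions), and 44 of 137 late regions were gained (32.1%, against 33.6%), 22 of them at promoters. In the HIRA mutants the log2 ratio was 2.16 on chromosome 4 and 2.21 on the large arms, 0 of 17 early regions were lost (against 0.888%) and 63 of 114 were gained (55.3%, against 60.3%). The share of chromosome 4 peaks that overlapped a transposable element was 13.9% and 14.02% at 2 to 3 h, against 10% and 9.88% at 0.5 to 1.5 h in the controls, and 17.5% and 13.2% against 8.82% and 11.6% in the mutants. Neither pair overlapped (exact permutation test, p = 0.333 each). On the large arms of the controls this share rose too, with 0.99% and 0.98% at 2 to 3 h, against 0.70% and 0.73%. In the mutants the large arms went the other way, with 1.12% and 0.84% at 2 to 3 h, against 1.56% and 1.13%. In the controls 88 regions were gained without late replicate 2 and 69 without early replicate 2, and 2 and 4 were lost without early replicate 1 and 2. In the mutants 139 were gained without late replicate 2, and 2 were lost without late or early replicate 1. With the 1505 widest peaks 6 were lost and 4 gained in the controls and 4 and 7 in the mutants.

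Transposable elements touched 56 of the 310 regions (18.1%), against 1.204% of regions on the large arms, and in single libraries the share of such peaks was higher on chromosome 4 by 10.5 ± 2.79 points (12 of 12 libraries, exact permutation test, adjusted p = 0.000558). Yet only 8.65% of the bases in the regions were in such elements, against 24.8% of the chromosome's bases. The most frequent families were INE-1, a short nonautonomous element, in 31 regions, the DNA transposon 1360 in 9, Cr1a in 5 and the telomeric HeT-A in 4. Of the 31 INE-1 regions 9 were present in 6 or more libraries, of the 9 with 1360 none.

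Motif content differed from the large arms as well. In single libraries the share of peaks with the GAF motif was lower on chromosome 4, with a difference of -13.3 ± 2.53 points (SD, 12 of 12 libraries), and that with the Zelda motif likewise (-7.26 ± 2.50, 12 of 12). The share with the DREF motif was higher (6.49 ± 2.51 points, 12 of 12), and each of these 3 had an adjusted p of 0.000558 (exact permutation test). For M1BP the difference was -0.70 ± 0.60 points (lower in 10 of 12, exact permutation test, adjusted p = 0.00488). Within 100 bp of the midpoints of merged regions the Zelda motif was not rarer, at 4.19% against 3.96% on the large arms. Nor was the M1BP motif, at 0.645% against 0.615%. GAF (1.29% against 5.82%) and DREF (7.42% against 2.96%) kept their directions there. The motifs are not equally frequent in the sequence itself, with 118.7 GAF matches per Mb on chromosome 4 and 217.5 on the large arms, 60.1 and 58.0 for Zelda, 390.2 and 159.3 for DREF, and 3.71 and 10.1 for M1BP. Matches to the DREF motif were thus more frequent, and those to the GAF motif less frequent, in the whole sequence of chromosome 4 too. The part of base composition in these shares was not tested.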

How the data were processed

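ATAC-seq peaks of 12 libraries were analysed. The authors trimmed reads with Trimmomatic 0.39, mapped them to dm6 with Bowtie2 2.2.5, kept unique reads of mapping quality 30 or more with SAMtools 1.18 and called peaks in each library with MACS2 2.2.7.1 at q 0.01. The deposited lists hold chromosome, start and end. They carry no score, summit or read count, so that depth is unknown and fewer or narrower peaks may come from shallower libraries. How the transposase offset was handled is not given in the sources used here. No peak was narrower than 200 bp.

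Overlapping peaks of all 12 libraries were merged, and positions were read against Ensembl release 115 genes and the transposable elements of the same assembly, counted from 1. A region took the first class it met, in the order promoter (overlap with 1 kb either side of a TSS), then by its midpoint coding exon, untranslated exon, other exon, intron or intergenic. The design expected peak heights. As the files hold none, widths stood in for them. Within-library comparisons used exact sign-flip permutation tests over 12 libraries, group comparisons exact permutation tests of libraries, all two-sided, with Benjamini-Hochberg adjustment within each family. Intervals are exact Poisson intervals at 95% and cover counting error only.

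Named genes were those on the gene lists with a region within 1 kb of a TSS, those at regions in all 12 libraries, at regions lost or gained (the 10 widest per contrast and direction) and at the 5 widest regions. The regions and lists were chosen with earlier results of these data known. Of 46 listed names 44 were found on chromosome 4 under the name used. Calculations used python 3.11.15, numpy 2.4.6, scipy 1.17.1 and matplotlib 3.10.9, and the tests were checked on simulated data.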

Additional observations from a re-analysis of the deposited data

How the results depend on the processing

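Of 199 alternative values 130 kept their direction and their side of the threshold or their size, and the density of chromosome 4 against the large arms kept its direction in every alternative run (0.67 to 0.75 when any 1 library was left out, 0.87 per Mb outside soft-masked repeats, 0.68 as kb covered, 0.72 with peaks within 100 bp merged). With 1 mean per group the density ratio was 0.72 (6 of 6 groups above 0, adjusted p = 0.0938) and the width difference 0.032 (5 of 6, adjusted p = 0.141), neither past the threshold (exact permutation tests). The promoter share difference was -10.5 points with the 1505 widest peaks and -6.87 against the X chromosome, and turned to 6.64 points against the 3 Mb next to the centromeres, all 3 past the threshold. It was -0.72 within 500 bp of a TSS and -2.47 by peak midpoints, neither past it, and ranged over -4.87 to -3.26 when 1 library was left out. The width difference (log2) was -0.046 with the widest peaks, 0.020 against the X chromosome, 0.053 next to the centromeres, and 0.025 to 0.037 when 1 library was left out.

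With the 1505 widest peaks of each library, the log2 ratio of chromosome 4 peak numbers between HIRA mutants and controls was 0.37 at 0.5 to 1.5 h and 0.42 at 2 to 3 h, opposite to the full lists. Regions lost and gained were then 4 and 5 in early and 5 lost in late HIRA mutants, 3 gained in dPCIF1 mutants, 6 and 4 between stages in the controls and 4 and 7 in the mutants. The relative density changed sign where it had been near 0, to 0.000217 in dPCIF1 mutants, 0.058 between stages in controls and 0.19 in mutants, and to 0.028 and 0.059 between stages as kb covered. With the other wild-type set as controls 40 regions were lost in early HIRA mutants, and 3 lost and 45 gained in dPCIF1 mutants.

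Leaving out 1 library at a time gave 25 to 42 lost and 3 to 13 gained regions in early HIRA mutants, 23 to 52 and 20 to 47 in late ones, and 7 to 17 and 32 to 45 in dPCIF1 mutants. Between stages it gave 0 to 4 lost and 62 to 88 gained in controls and 0 to 2 and 78 to 139 in mutants, as fewer libraries then had to meet the rule. The relative density ranged over 0.21 to 0.56 and 0.26 to 0.37 in early and late HIRA mutants, -0.089 to 0.040 in dPCIF1 mutants, -0.12 to 0.10 between stages in controls and -0.25 to 0.10 in mutants. The late HIRA peak number ratio ranged over -0.31 to 0.16.

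The replicate numbers did not pair the libraries (correlation of same-numbered deviations -0.02 to 0.05 over the chromosome 4 regions). With a replicate block the log2 peak number ratios were -1.07 and -0.07 in early and late HIRA mutants and 0.44 in dPCIF1 mutants, with no change of direction.

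With 2 libraries a group no comparison between groups can pass 0.05, and a missing peak is a missing call at an unknown depth.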

Other observations

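The 5 widest regions of chromosome 4 were in coding exons of bt (1714 bp), ATPsynbeta and pan and at the promoters of Rad23 and of Tdg with Pur-alpha. The widest of them, in bt (chr4:747564-749277), had peaks of 979 and 638 bp in the late HIRA controls and of 270 bp in 1 late HIRA mutant. The region in a coding exon of pan (chr4:92035-93268) had peaks of 1088 and 971 bp in the late HIRA mutants, against 936 and 849 bp in the controls, and of 285 bp in 1 early HIRA mutant, against 614 and 666 bp. None of the 4 libraries of the dPCIF1 experiment had a peak there.

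The region in the HeT-A element (chr4:1280565-1280880) was the 1 region gained in both early HIRA mutants and dPCIF1 mutants. Its peaks were 268 and 252 bp in the early HIRA mutants and 273 and 275 bp in the dPCIF1 mutants, against none in the controls of either, and 229 bp in 1 late HIRA mutant. A further 3 regions were gained in both late HIRA mutants and dPCIF1 mutants, in introns of Sox102F and asRNA:CR44030 and near lncRNA:CR44024, the last of which was named after its values were seen.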
